A study of Mus musculus with 12 samples.

Results

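Xlr3a, Xlr3b, Xlr3c, Xlr4a, Xlr4b, Xlr4c and Xlr5a are protein-coding genes of the X-linked lymphocyte-regulated (Xlr) family, which lie in 1 cluster on the mouse X chromosome. They were taken by name, and all 7 were found among the 26742 genes of the table. The RNA came from mouse embryonic stem (ES) cells of 2 backgrounds, 129 and B6J (read here as C57BL/6J), all labelled male. The cells grew in medium with serum and LIF, the cytokine that keeps ES cells undifferentiated, and received a daily dose until day 5. The 4 groups of 3 libraries were B6J cells given 1 µM of PD 0325901 (B6J iMEK), B6J cells given only the solvent (B6J DMSO), 129 cells given 1 µM of PD 0325901 (129 iMEK), and 129 cells given only the solvent (129 DMSO). PD 0325901 blocks MEK, the kinase that activates ERK, and is a component of the media used to hold ES cells in the naive state. The title of the series concerns genetic variation and aberrant hypomethylation of DNA. Polyadenylated RNA was sequenced from a stranded kit, with 62634533 to 96341637 counts per library.

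The labels give 1 genotype per background and no clone, so background and the cell line used cannot be told apart. Separate cultures are not stated for the libraries of a group, so p-values measure the spread between libraries only, which may be technical. In bulk RNA, fewer cells with a transcript and less of it per cell cannot be told apart. In each group 1 library stood apart from its fellows over all genes, namely replicate 3 of B6J iMEK and replicate 1 of B6J DMSO, of 129 iMEK and of 129 DMSO. The last differed most, with a chi-square divided by its degrees of freedom of 177 and 167, against 7.56 between the other 129 DMSO libraries. All 8 ES cell markers were detected in every group, with summed levels between 2745 and 4787 CPM (counts scaled to a common library total) over the 12 libraries. At an adjusted p under 0.05 in the edgeR test given below, 3 were higher and 1 lower in B6J in DMSO, and 1 higher and 1 lower in the inhibitor. The lower one was Zfp42, at 35.7 CPM in B6J DMSO against 289 CPM in 129 DMSO, and at 67.4 CPM in B6J iMEK against 481 CPM in 129 iMEK. All 4 Y-linked genes of the sex chromosome list were detected in every group, and Xist ran from 17.8 to 86.8 CPM.

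Xlr genes encode proteins related to SYCP3, a component of the axis on which meiotic chromosomes are organised. The family was first described from lymphocytes, and its members are also expressed in testis and brain. In mouse brain Xlr3b, Xlr4b and Xlr4c are imprinted, with more expression from the maternal X. DNA methylation at a CpG-containing promoter is a general means of silencing germline genes in somatic cells, and Xlr genes have been described as sensitive to its loss.

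The cluster spans 218.6 kb, at chrX:73074345-73292976 (GRCm38, GENCODE M21). From left to right the annotated genes start with Xlr4a (chrX:73074345-73082478, minus strand) and Xlr3a (chrX:73086293-73097095, minus strand). Xlr5a (minus strand) starts at 73107635 and its longest model ends at 73292976, over the rest of the cluster, while the RefSeq model ends at 73118717. Next come Xlr3b (chrX:73192207-73202930, plus strand), Xlr4b (chrX:73214333-73222453, plus strand), Xlr4c (chrX:73233688-73243130, minus strand) and Xlr3c (chrX:73254540-73265390, minus strand). Members of a branch are close copies of each other, which bears on how far their reads can be told apart. Longest transcripts were 98.1 to 99.2% identical among the Xlr3 genes and 98.7 to 99.1% among the Xlr4 genes, over the aligned bases. Of the 50-base windows in its annotated transcripts, 55.2% were found in no other gene for Xlr3a, 43.4% for Xlr3b and 27.9% for Xlr3c. The share was 22.3% for Xlr4a, 47.8% for Xlr4b, 36.2% for Xlr4c and 15.8% for Xlr5a. How reads with several positions were counted is not given in the sources used here, so values of single members are uncertain within a branch.

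The promoters of all 3 Xlr3 genes are shown because Xlr3a and Xlr3c differed in their values although their promoters are near copies, and Xlr4a and Xlr5a stand for the other branches. Each is a RefSeq promoter sequence (GRCm38.p6) of 300 bases, given 5′ to 3′ on the gene's own strand, with CpG in capitals. These 300-base windows hold the annotated start of the gene, except that of Xlr5a. Its window lies inside the RefSeq model of the gene, which on the minus strand starts at 73118717. They lie at chrX:73097046-73097345 for Xlr3a, chrX:73191929-73192228 for Xlr3b, chrX:73265341-73265640 for Xlr3c, chrX:73082458-73082757 for Xlr4a and chrX:73117653-73117952 for Xlr5a.
Xlr3a: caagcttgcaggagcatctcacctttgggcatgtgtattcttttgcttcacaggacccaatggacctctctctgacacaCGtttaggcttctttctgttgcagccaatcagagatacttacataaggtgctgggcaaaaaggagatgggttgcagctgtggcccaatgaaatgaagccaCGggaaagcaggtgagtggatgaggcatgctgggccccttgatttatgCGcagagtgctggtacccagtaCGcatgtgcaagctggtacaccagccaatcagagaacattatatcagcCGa
Xlr3b: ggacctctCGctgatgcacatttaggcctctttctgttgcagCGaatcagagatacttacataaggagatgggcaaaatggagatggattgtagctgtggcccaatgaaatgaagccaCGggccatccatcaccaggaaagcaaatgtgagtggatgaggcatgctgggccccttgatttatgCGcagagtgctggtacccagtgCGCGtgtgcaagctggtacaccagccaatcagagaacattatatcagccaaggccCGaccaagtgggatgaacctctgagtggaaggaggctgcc
Xlr3c: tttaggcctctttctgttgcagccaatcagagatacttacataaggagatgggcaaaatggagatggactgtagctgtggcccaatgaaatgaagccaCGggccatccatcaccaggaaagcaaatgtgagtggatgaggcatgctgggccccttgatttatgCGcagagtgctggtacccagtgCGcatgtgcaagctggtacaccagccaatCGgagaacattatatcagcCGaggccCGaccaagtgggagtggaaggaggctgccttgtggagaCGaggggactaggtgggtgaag
Xlr4a: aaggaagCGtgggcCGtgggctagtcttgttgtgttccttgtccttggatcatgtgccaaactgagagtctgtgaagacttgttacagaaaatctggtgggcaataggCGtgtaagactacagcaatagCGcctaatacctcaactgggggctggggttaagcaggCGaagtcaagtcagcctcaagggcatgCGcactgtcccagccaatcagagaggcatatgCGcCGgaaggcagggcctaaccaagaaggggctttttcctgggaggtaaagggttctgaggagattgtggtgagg
Xlr5a: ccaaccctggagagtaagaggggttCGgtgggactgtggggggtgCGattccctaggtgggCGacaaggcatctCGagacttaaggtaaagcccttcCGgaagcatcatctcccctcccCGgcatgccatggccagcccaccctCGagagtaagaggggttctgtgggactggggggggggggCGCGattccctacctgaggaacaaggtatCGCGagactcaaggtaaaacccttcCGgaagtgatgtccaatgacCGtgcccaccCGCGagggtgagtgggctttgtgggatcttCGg
The windows held 5 CpGs in Xlr3a, 7 in Xlr3b and Xlr3c, 8 in Xlr4a and Xlr4b, 7 in Xlr4c and 16 in Xlr5a, against a median of 7 over 32851 RefSeq promoters of the same length (quartiles 3 and 20). Xlr3a shared 94.1% of aligned promoter bases with Xlr3b and 95.4% with Xlr3c, and Xlr3b shared 98.1% with Xlr3c. The Xlr4 promoters were 98.1 to 98.9% identical. The letters TGCGCA, which read the same on both strands, occurred in 6 of the 7 windows, all but that of Xlr5a, and in 7.8% of all promoters. CCAAT or its reverse complement ATTGG occurred in 7 of 7 and in 37.4% of all promoters. CACGTG, also the same on both strands (7.2% of all promoters), and TCCCGC or GCGGGA (20%) were in none of the 7. Since the members are copies, these matches are not independent of each other, and they describe letters only.

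All 7 members were lower in B6J than in 129 cells, with the inhibitor as well as with the solvent. Levels in the highest group ran from 0.440 CPM for Xlr4c to 11.7 CPM for Xlr3a, so the genes are of low abundance. Per kilobase of exon in 129 DMSO the order was Xlr3a (2.89 ± 0.237 CPM per kb, SD, n = 3), Xlr3c (1.67 ± 0.325), Xlr3b (1.07 ± 0.115), Xlr5a (0.663 ± 0.352), Xlr4a (0.580 ± 0.177), Xlr4b (0.381 ± 0.439) and Xlr4c (0.197 ± 0.220). The Xlr3 levels were separated by more than their SDs, whereas from Xlr5a down each level was within the SD of the next. In 129 iMEK Xlr3c (2.85 ± 0.824 CPM per kb) and Xlr3a (2.67 ± 0.639) led and were within their spread, followed by Xlr4a (1.16 ± 0.0926) and Xlr3b (1.01 ± 0.109). In B6J iMEK Xlr3a, Xlr3c and Xlr3b were at 0.150 ± 0.0629, 0.137 ± 0.0389 and 0.124 ± 0.0249 CPM per kb, within their spread, and the other 4 were at 0.0263 or less. In B6J DMSO Xlr3c had the highest mean (0.116 ± 0.0933 CPM per kb) and Xlr3a was at 0.00850 ± 0.00419.

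**Figure D1:**
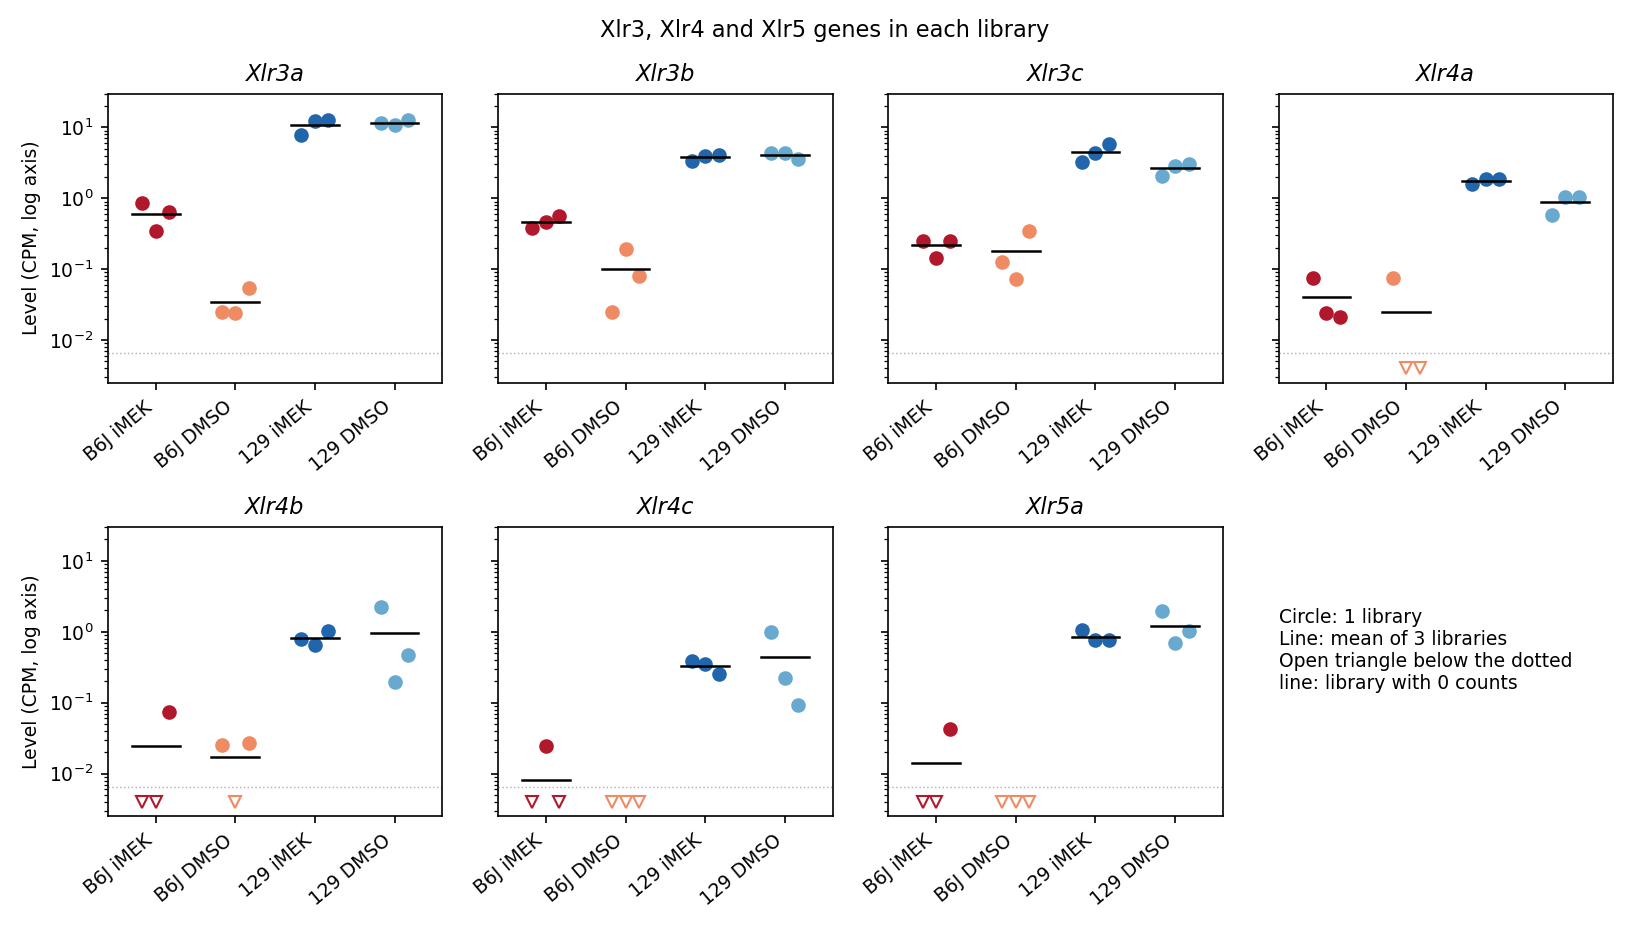
Level of each member in each library, in CPM on a log axis, with B6J iMEK, B6J DMSO, 129 iMEK and 129 DMSO from left to right; circles are libraries, lines are means of 3 libraries and open triangles are libraries with 0 counts. For every member the 129 libraries lie above all B6J libraries, and in Xlr3a and Xlr3b the B6J iMEK libraries lie above the B6J DMSO libraries.

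The first question was how the backgrounds differ. Xlr3a had 0.848, 0.340 and 0.630 CPM in B6J iMEK libraries, against 7.84, 12.1 and 12.5 CPM in 129 iMEK libraries. It had 0.0252, 0.0241 and 0.0540 CPM in B6J DMSO libraries, against 11.6, 10.8 and 12.7 CPM in 129 DMSO libraries. The groups did not overlap in either medium, and the B6J DMSO values stand for 2, 2 and 4 counts. In edgeR's quasi-likelihood test over all genes with Benjamini-Hochberg adjustment, the log2 difference of Xlr3a, B6J minus 129, was -4.16 in the inhibitor (SE 0.30, adjusted p = 4.11e-06) and -8.36 in DMSO (SE 0.42, adjusted p = 2.16e-07). From the pooled counts Xlr3a was 18.0-fold lower in B6J in the inhibitor (95% exact interval 15.3 to 21.3) and 344-fold lower in DMSO (175 to 798). These intervals cover counting error only.

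Xlr3b, imprinted in mouse brain, had 0.380, 0.462 and 0.567 CPM in B6J iMEK libraries, against 3.34, 3.97 and 4.12 CPM in 129 iMEK libraries. In DMSO it had 0.0252, 0.193 and 0.0810 CPM in B6J libraries, against 4.34, 4.29 and 3.56 CPM in 129 libraries. Its log2 difference, B6J minus 129, was -3.01 (SE 0.35, adjusted p = 0.000128) in the inhibitor and -5.31 (SE 0.42, adjusted p = 6.42e-06) in DMSO. Xlr3c had 0.253, 0.146 and 0.252 CPM in B6J iMEK libraries, against 3.29, 4.39 and 5.89 CPM in 129 iMEK libraries. In DMSO it had 0.126, 0.0722 and 0.351 CPM in B6J libraries, against 2.06, 2.82 and 3.04 CPM in 129 libraries. Xlr3c was thus the Xlr3 gene with the smallest difference in DMSO (-3.86, SE 0.46, adjusted p = 0.000142), and in the inhibitor its difference was -4.37 (SE 0.45, adjusted p = 5.19e-05). The DMSO differences were larger with 1 B6J DMSO library left out, -6.23 for Xlr3b without replicate 2 and -4.72 for Xlr3c without replicate 3.

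The Xlr4 genes and Xlr5a were close to the detection limit in B6J. Xlr4a had 6, 2 and 2 counts in B6J iMEK libraries and 6, 0 and 0 in B6J DMSO libraries, against 117, 122 and 155 in 129 iMEK libraries and 42, 75 and 67 in 129 DMSO libraries. Xlr4b, imprinted in mouse brain, had 0, 0 and 7 counts in B6J iMEK libraries and 2, 0 and 2 in B6J DMSO libraries, against 58, 43 and 85 in 129 iMEK libraries and 165, 14 and 30 in 129 DMSO libraries. The high 129 DMSO value belongs to replicate 1, the library that stood apart, and the groups did not overlap with or without it. Log2 differences, B6J minus 129, were -5.44 (SE 0.66, adjusted p = 0.000172) for Xlr4a and -4.87 (SE 1.10, adjusted p = 0.00936) for Xlr4b in the inhibitor. In DMSO they were -5.05 (SE 0.72, adjusted p = 0.000518) for Xlr4a and -5.72 (SE 1.19, adjusted p = 0.00558) for Xlr4b. The Xlr4b difference in DMSO was -4.16 without replicate 1 of 129 DMSO (adjusted p = 0.01), and the Xlr4a difference in the inhibitor was -6.20 without replicate 1 of B6J iMEK. Where leaving out a library left B6J without counts, Xlr4a was at least 46.3-fold lower in B6J in DMSO (without replicate 1 of B6J DMSO) and Xlr4b at least 45.2-fold lower in the inhibitor (without replicate 3 of B6J iMEK).

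Xlr4c, the other imprinted Xlr4 gene, had 0, 2 and 0 counts in B6J iMEK libraries and 0 in all 3 B6J DMSO libraries, against 28, 23 and 21 in 129 iMEK libraries and 73, 16 and 6 in 129 DMSO libraries. Xlr5a had 0, 0 and 4 counts in B6J iMEK libraries and 0 in all 3 B6J DMSO libraries, against 76, 50 and 63 in 129 iMEK libraries and 142, 50 and 65 in 129 DMSO libraries. A count of 0 in B6J DMSO allows a level of up to 0.0127 CPM (3 counts over the group). This floor takes each count as a separate read, and the bounds allow no error on the counts of the other group. Against that floor Xlr4c was at least 36.0-fold lower and Xlr5a at least 97.3-fold lower in B6J DMSO than in 129 DMSO (adjusted p = 0.00629 and 0.000286). Of the 95 Xlr4c counts in 129 DMSO, 73 came from replicate 1, and without that library the bound was 12.8-fold for Xlr4c and 66.96-fold for Xlr5a. With 1 of the B6J DMSO libraries left out the bounds were 23.3-fold to 24.7-fold for Xlr4c and 63.1-fold to 66.8-fold for Xlr5a. In the inhibitor the B6J to 129 ratio was 0.0240 (95% exact interval 0.00285 to 0.0898) for Xlr4c, from 2 against 72 counts (adjusted p = 0.0164), and the log2 difference of Xlr5a was -5.66 (SE 0.78, adjusted p = 0.000878). All 4 Xlr5a counts in B6J iMEK came from replicate 3 and both Xlr4c counts from replicate 2, and without these libraries the bounds were at least 45.9-fold lower in B6J for Xlr5a and at least 18.9-fold for Xlr4c. The Xlr4c call in the inhibitor was lost without replicate 1 or 3 of B6J iMEK (adjusted p = 0.0609 and 0.0596).

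Of the 7 members 0 were called higher and 7 lower in B6J in each medium, where a call is an adjusted p under 0.05. Among all 16627 genes tested, 10.5% were called lower and 10.4% higher in DMSO, and 9.47% lower and 8.90% higher in the inhibitor. The groups did not overlap for 7 of 7 members in each medium, with B6J lower, as they did for 17.9% of tested genes in DMSO and 19.6% in the inhibitor. The median log2 difference of the members was -5.72 in DMSO and -4.87 in the inhibitor, against -0.01 over all tested genes in each. With Xlr4c and Xlr5a at their bounds the DMSO median was -5.31. Xlr4a, Xlr4b, Xlr4c and Xlr5a passed the filter on low counts through their 129 libraries alone, so for these 4 a difference between backgrounds was built into being tested. Xlr3a, Xlr3b and Xlr3c had enough counts in B6J to pass without 129.

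Xlr3a and Xlr3b rose with the inhibitor in B6J. Xlr3a had 67, 28 and 60 counts in B6J iMEK libraries, against 2, 2 and 4 in B6J DMSO libraries, and Xlr3b had 30, 38 and 54 counts in B6J iMEK libraries, against 2, 16 and 6 in B6J DMSO libraries. For both genes every B6J iMEK library was above every B6J DMSO library. Xlr3a averaged 0.606 ± 0.255 CPM in B6J iMEK and 0.0344 ± 0.0170 CPM in B6J DMSO (SD, n = 3 each), a log2 fold change of 4.10 (SE 0.46, adjusted p = 5.09e-05). Its level in B6J iMEK was still 0.0557 of that in 129 iMEK, by pooled counts (95% exact interval 0.0470 to 0.0655). Xlr3b averaged 0.470 ± 0.0941 CPM in B6J iMEK and 0.0995 ± 0.0852 CPM in B6J DMSO, a log2 fold change of 2.21 (SE 0.43, adjusted p = 0.00234).

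No other member was called in B6J. Xlr3c averaged 0.217 ± 0.0616 CPM in B6J iMEK and 0.183 ± 0.148 CPM in B6J DMSO, with overlapping libraries (log2 fold change 0.27, SE 0.50, adjusted p = 0.725). Its pooled ratio was 1.23 (95% counting interval 0.810 to 1.88), beside 4.69 for Xlr3b (3.01 to 7.60). Of the 42 Xlr3c counts in B6J DMSO, 26 came from replicate 3, and without that library the log2 fold change of Xlr3c was 1.13 (adjusted p = 0.0898). Xlr4a had a log2 fold change of 0.60 (SE 0.99, adjusted p = 0.691) and Xlr4b of 0.61 (SE 1.73, adjusted p = 0.827), each with overlapping libraries. All 6 Xlr4a counts of B6J DMSO came from replicate 1: without that library B6J DMSO held 0 counts, Xlr4a was at least 2.04-fold higher in B6J iMEK, and it was called (adjusted p = 0.0322). For Xlr4b the 7 counts of B6J iMEK all came from replicate 3, without which B6J iMEK held 0 counts. Xlr4c held 2 counts in B6J iMEK and 0 in B6J DMSO, at or under the floor in both, so no fold is given. Xlr5a held 4 against 0, all 4 in replicate 3 of B6J iMEK, and without that library both groups were at 0. Set against the floor of 3 counts this is 1.23-fold, with no error allowed on the 4 counts. No rise of Xlr5a is shown (adjusted p = 0.22).

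Of the members 2 rose and 0 fell in B6J, against 14.6% of all tested genes higher and 16.5% lower. The libraries of the 2 groups did not overlap for the same 2 members, with B6J iMEK higher, and for 24.3% of all tested genes in that direction. The median log2 fold change was 2.21 over the members with the fitted values of Xlr4c and Xlr5a, and 0.00 over all tested genes. It was 0.61 over 6 members with Xlr5a set against the floor and Xlr4c left out. Both calls held in every alternative tried, with Xlr3a between 3.81 and 4.53 and Xlr3b between 1.75 and 3.13 when 1 library was left out, the highest Xlr3b value without replicate 2 of B6J DMSO.

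In 129 no member was called. Xlr3a had 568, 803 and 1031 counts in 129 iMEK libraries, against 845, 768 and 812 in 129 DMSO libraries, and averaged 10.8 ± 2.58 CPM in 129 iMEK and 11.7 ± 0.960 CPM in 129 DMSO (log2 fold change -0.11, SE 0.26, adjusted p = 0.766). The sign of this value turned without replicate 1 of 129 iMEK (0.0760). Xlr3b averaged 3.81 ± 0.413 CPM in 129 iMEK and 4.06 ± 0.436 CPM in 129 DMSO (-0.09, SE 0.32, adjusted p = 0.84). By pooled counts the ratio was 0.933 for Xlr3a (95% counting interval 0.881 to 0.987) and 0.936 for Xlr3b (0.850 to 1.03).

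Xlr3c and Xlr4a were the members whose 129 libraries did not overlap between media. Xlr3c had 238, 291 and 486 counts in 129 iMEK libraries, against 150, 201 and 195 in 129 DMSO libraries, with means of 4.52 ± 1.31 CPM in 129 iMEK and 2.64 ± 0.515 CPM in 129 DMSO (log2 fold change 0.78, SE 0.38, adjusted p = 0.13). Xlr4a averaged 1.78 ± 0.142 CPM in 129 iMEK and 0.891 ± 0.272 CPM in 129 DMSO (1.00, SE 0.49, adjusted p = 0.133). In both genes all 3 libraries of 129 iMEK were the higher ones. Groups did not overlap in that direction for 23.0% of all tested genes.

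Xlr4b, Xlr4c and Xlr5a had lower means in 129 iMEK than in 129 DMSO, with overlapping libraries. Xlr4b averaged 0.826 ± 0.192 CPM in 129 iMEK and 0.976 ± 1.12 CPM in 129 DMSO (log2 fold change -0.24, adjusted p = 0.83). Xlr4c averaged 0.329 ± 0.0679 CPM in 129 iMEK and 0.440 ± 0.491 CPM in 129 DMSO (-0.43, adjusted p = 0.689), and Xlr5a 0.856 ± 0.168 CPM in 129 iMEK and 1.22 ± 0.649 CPM in 129 DMSO (-0.51, adjusted p = 0.458). In each of the 3 the highest 129 DMSO value came from replicate 1. Without that library the log2 fold change was 1.33 for Xlr4b and 1.03 for Xlr4c (adjusted p = 0.139 and 0.216). For Xlr5a the ratio of 129 iMEK to 129 DMSO by pooled counts was 1.01 without it, against 0.693 with all libraries.

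In total 0 of 7 members were called in 129 by edgeR (0 at an unadjusted p under 0.05), against 35.7% of all tested genes, 17.4% higher and 18.2% lower. DESeq2 called Xlr4a (1 member; 40.1% of all genes), limma-voom Xlr3c and Xlr4a (2 members; 35.4%), and edgeR with the fibroblast markers as a covariate Xlr3c and Xlr4a higher and Xlr5a lower (3 members; 32.0%). The median log2 fold change was -0.11 over the members and -0.01 over all tested genes.

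**Figure D2:**
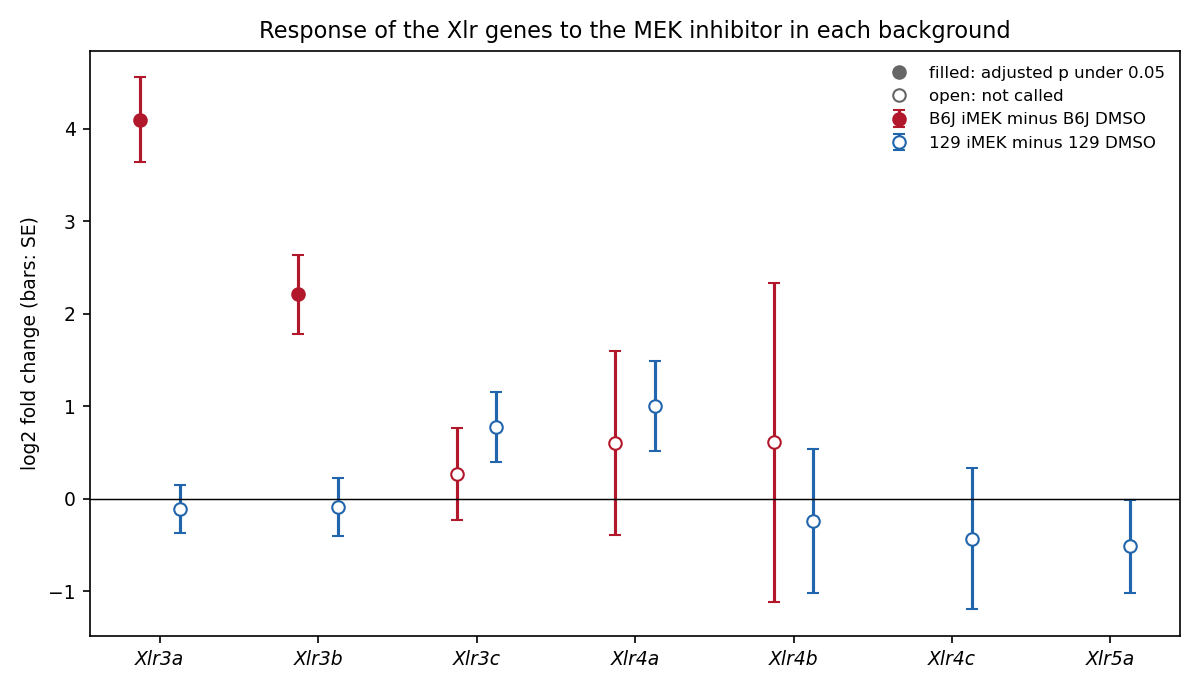
Log2 fold change of each member with the inhibitor, in B6J (red, iMEK minus DMSO) and in 129 (blue, iMEK minus DMSO), with bars of 1 SE and filled points for an adjusted p under 0.05. Xlr3a (4.10) and Xlr3b (2.21) are the filled points, both in B6J; Xlr4c and Xlr5a have no B6J point because B6J DMSO held 0 counts.

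The response of Xlr3a, taken as a fold change, differed between backgrounds. The B6J response minus the 129 response was 4.21 on the log2 scale for Xlr3a (SE 0.54, adjusted p = 0.0042), from 4.10 in B6J and -0.11 in 129. For Xlr3b it was 2.30 (SE 0.53, adjusted p = 0.0614), from 2.21 in B6J and -0.09 in 129, and did not pass. The differences of Xlr3c (-0.51, SE 0.63, adjusted p = 0.792), Xlr4a (-0.39, SE 1.26, adjusted p = 0.929) and Xlr4b (0.85, SE 1.91, adjusted p = 0.9) were smaller than their errors, and neither Xlr4c nor Xlr5a was called (adjusted p = 0.717 and 0.476). Of the 7 members 1 was called higher in B6J and 0 lower, against 0.710% and 0.770% of all tested genes. Limma-voom left Xlr3a just over the threshold (4.04, adjusted p = 0.0526; 0 members, 0.980% of all genes). Xlr3a and Xlr3b were both called by DESeq2 (4.81% of all genes), with halved counts (1.64%) and with the fibroblast covariate (5.05%).

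Within the Xlr3 branch the makeup of the counts differed between groups. Xlr3a made up 46.5% of the 333 Xlr3 counts in B6J iMEK (95% exact binomial interval 41.1 to 52.1%), against 10.8% of 74 in B6J DMSO (4.78 to 20.2%). In 129 it made up 56.4% of 4262 counts in iMEK (54.9 to 57.8%), against 63.5% of 3821 in DMSO (61.92 to 64.99%). Xlr3c made up 16.8% in B6J iMEK (13.0 to 21.3%), with 17.1, 15.4 and 17.4% in the single libraries, against 56.8% in B6J DMSO (44.7 to 68.2%), with 71.4, 25 and 72.2% in the single libraries. The B6J DMSO shares rest on 14, 24 and 36 counts and spread wider than the counting interval. The level of Xlr3c itself was not lower in B6J iMEK, while those of Xlr3a and Xlr3b were higher, as the CPM values show. It made up 23.8% in 129 iMEK (22.5 to 25.1%), against 14.3% in 129 DMSO (13.2 to 15.4%). Xlr3b made up 36.6% in B6J iMEK, 32.4% in B6J DMSO, 19.8% in 129 iMEK and 22.2% in 129 DMSO. Counts of the branch are pooled over 3 libraries here, and the split among near-identical copies depends on how shared reads were counted.

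Among the Xlr4 genes, Xlr4a made up 60.4% of 652 counts in 129 iMEK, with 57.6, 64.9 and 59.4% in the single libraries, against 37.7% of 488 in 129 DMSO, with 15, 71.4 and 65.05% in the single libraries. The lower pooled share in 129 DMSO came from replicate 1, the library that stood apart, and without it the 129 DMSO share was 68.3%.

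The sum over a branch does not depend on the split within it. It still depends on whether reads with several positions were counted, which is not given. The Xlr3 sum was 0.948 to 1.48 CPM in B6J iMEK libraries, against 0.176 to 0.486 CPM in B6J DMSO libraries, without overlap. In 129 it was 14.5 to 22.5 CPM in iMEK libraries, against 17.9 to 19.3 CPM in DMSO libraries. By pooled counts the Xlr3 sum was 4.15-fold higher in B6J iMEK than in B6J DMSO (95% exact interval 3.22 to 5.42), and 1.05-fold in 129 (1.00 to 1.10). The Xlr4 sum was 1.75-fold in B6J (0.776 to 4.22, from 19 against 10 counts) and 1.26-fold in 129 (1.12 to 1.42). Without replicate 1 of 129 DMSO the Xlr4 sum was 1.92-fold in 129, and without replicate 1 of B6J DMSO it was 5.83-fold in B6J, from 19 against 2 counts.

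**Figure D3:**
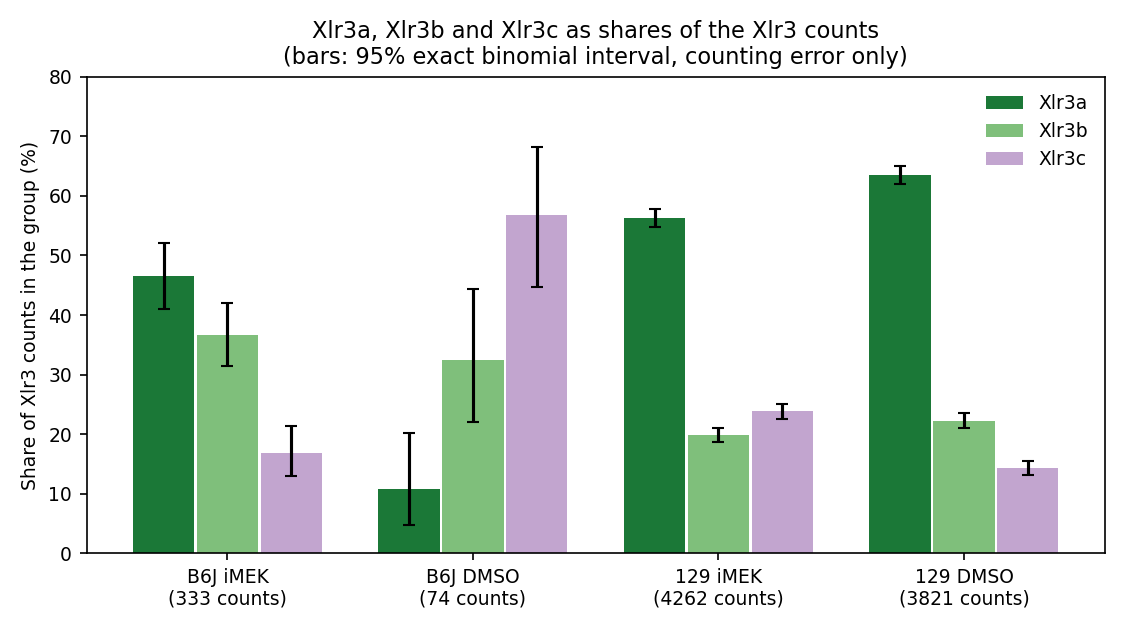
Share of the Xlr3 counts that each Xlr3 gene holds in B6J iMEK, B6J DMSO, 129 iMEK and 129 DMSO, pooled over 3 libraries, in percent, with 95% exact binomial intervals that cover counting error only. Xlr3a holds 46.5% in B6J iMEK and 10.8% in B6J DMSO, where Xlr3c holds 56.8%.

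Low counts set the precision in B6J. Of 42 values (7 genes in 6 libraries) 15 were 0 in B6J, against 0 of 42 in 129. Among values from 1 to 20 over all genes, 70.09 to 73.37% per library were even, against 52.06 to 55.17% of values over 100 and up to 1000. Of the members' nonzero values 25 of 27 were even in B6J and 23 of 42 in 129. Counting intervals that take each count as a separate read may therefore be too narrow in B6J. Bounds set against a group at 0 counts may be too high for the same reason. With counts halved the B6J response was 4.05 for Xlr3a (adjusted p = 0.000132) and 2.19 for Xlr3b (adjusted p = 0.00206).

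Across the 12 libraries the log2 CPM of any pair of members was correlated, with Pearson's r from 0.834 (Xlr3b with Xlr4b) to 0.973 (Xlr3a with Xlr3b). These points share the difference between backgrounds and, within branches, sequence. After each group's mean was subtracted, r ran from -0.790 (Xlr3b with Xlr4a) to 0.894 (Xlr4b with Xlr5a), and was 0.757 for Xlr3a with Xlr3c and -0.0253 for Xlr3a with Xlr3b. Xlr4b and Xlr5a were both highest of their group in replicate 1 of 129 DMSO (165 and 142 counts). The same held for replicate 3 of B6J iMEK (7 and 4 counts), and both libraries stood apart over all genes. The non-member gene closest to Xlr3a among 13179 was Calb2, which encodes the calcium-binding protein calretinin (r = 0.985), followed by Dnah8, an axonemal dynein heavy chain of sperm tails (r = 0.982). Calb2 averaged 2.54 ± 0.580 CPM in B6J iMEK, 0.936 ± 0.0483 CPM in B6J DMSO, 11.1 ± 0.813 CPM in 129 iMEK and 10.1 ± 1.65 CPM in 129 DMSO. Closest to Xlr3b were Zfp560 (r = 0.976) and Calb2 (0.967), to Xlr3c Dynlt1b and Xirp2 (0.976 each), and to Xlr4a Poli (0.991) and Arhgap30 (0.990). Closest to Xlr4b were Arf3 (0.959) and Spink1 (0.958), to Xlr4c Spink1 (0.964) and Hnf4a (0.956), and to Xlr5a Glrx (0.989) and Wdfy1 (0.988).

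The other Xlr5 genes near the cluster, Xlr5b and Xlr5c, had their counts mostly in 129. Xlr5b held 0 counts over B6J iMEK and 4 over B6J DMSO, against 90 over 129 iMEK and 90 over 129 DMSO. Xlr5c held 10 counts over B6J iMEK and 0 over B6J DMSO, against 89 over 129 iMEK and 77 over 129 DMSO. Both were called lower in B6J in each medium (adjusted p = 0.00165 and 0.0211 in the inhibitor, 0.00458 and 0.00397 in DMSO), as 2 of the 4 tested relatives. Like Xlr5a they passed the filter through 129 libraries alone, so that a lower B6J level was built into their being tested. Xlr5a shares 72.8% of its 50-base windows with Xlr5b and 63% with Xlr5c, so the 3 genes are not independent readings. Xlr, the family's founding member, was not called in DMSO (log2 difference -2.25, adjusted p = 0.052) or in the inhibitor (-1.15, adjusted p = 0.365), and nor was the autosomal Sycp3 (0.21 and -0.23). Slx and Slxl1, relatives expressed in spermatids, had 0 counts in all libraries.

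Around the cluster the background difference was uneven. Of 31 other genes within 500 kb, 23 were tested, of which 0 were called higher and 6 lower in B6J in DMSO, and 0 higher and 7 lower in the inhibitor. Besides Xlr5b and Xlr5c, the lower ones with the largest differences were Pnma5 and Gm18336. Pnma5, of the PNMA family derived from retrotransposon Gag genes, had 6.15, 5.13 and 4.06 CPM in B6J iMEK libraries and 1.95, 2.05 and 2.17 CPM in B6J DMSO libraries, against 33.0, 57.2 and 54.5 CPM in 129 iMEK libraries and 25.1, 44.3 and 42.9 CPM in 129 DMSO libraries. It was lower in B6J in the inhibitor (-3.24, adjusted p = 9.11e-06) and in DMSO (-4.19, adjusted p = 1.79e-06), and rose with the inhibitor in B6J (1.31, adjusted p = 0.00285), while in 129 its value was 0.37 (adjusted p = 0.262). The difference of these responses was not called (0.95, adjusted p = 0.267). F8a, named after its values were seen because it lies between Xlr4b and Xlr4c, averaged 2.54 ± 0.371 CPM in B6J DMSO and 2.64 ± 0.175 CPM in 129 DMSO (log2 difference -0.05, adjusted p = 0.877). With the inhibitor F8a averaged 1.65 ± 0.315 CPM in B6J iMEK and 2.52 ± 0.355 CPM in 129 iMEK and was called lower in B6J (-0.60, adjusted p = 0.0451), and it fell with the inhibitor in B6J (-0.62, adjusted p = 0.0267). Gm14685, DXBay18 and Spin2d, also inside the cluster, failed the filter on low counts. Over B6J iMEK, B6J DMSO, 129 iMEK and 129 DMSO, Gm14685 held 0, 2, 12 and 14 counts. In the same order DXBay18 held 0, 4, 26 and 12 counts, and Spin2d 4, 3, 23 and 15. Their few counts thus lay mostly in 129, unlike those of F8a in DMSO. The neighbours with the largest called responses were Gabra3, a GABA receptor subunit (-3.48 in B6J and -2.34 in 129), Dusp9, a phosphatase of ERK (-1.91 and -1.47), Atp2b3 (-1.91 in B6J), Slc6a8 (1.05 in 129) and Bgn (0.98 in 129). Over the X chromosome 32 of 585 tested genes were called higher and 88 lower in B6J in DMSO, and 21 higher and 66 lower in the inhibitor.

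**Figure D4:**
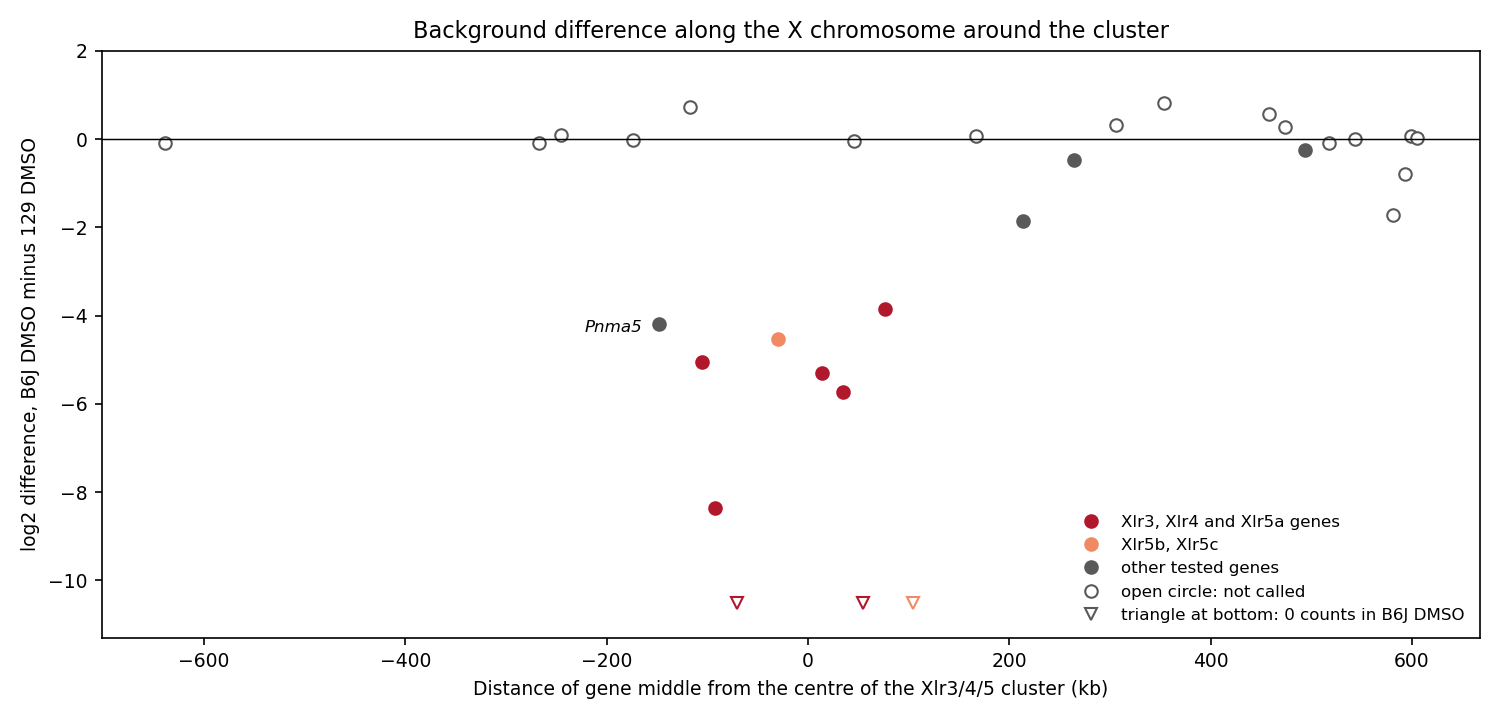
Log2 difference between B6J DMSO and 129 DMSO (B6J minus 129) for tested genes within 500 kb of the cluster, against the distance of the gene's middle from the cluster's centre in kb; filled points are called, and triangles at the bottom mark genes with 0 counts in B6J DMSO. The members lie between -3.86 and -8.36 or at the bottom, with Pnma5 at -4.19 beside them, while F8a inside the cluster is at -0.05. Gm14685, DXBay18 and Spin2d, also inside the cluster, were not tested and have no point.

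Other germline genes differed between backgrounds in both directions. Of 14 tested X-linked germline genes 2 were higher and 4 lower in B6J in DMSO, and 1 higher and 3 lower in the inhibitor. Magea4, a melanoma antigen family gene of the testis, averaged 0.0554 ± 0.0116 CPM in B6J iMEK and 0.00839 ± 0.0145 CPM in B6J DMSO, against 1.41 ± 0.295 CPM in 129 iMEK and 0.575 ± 0.132 CPM in 129 DMSO. It rose with the inhibitor in 129 (log2 fold change 1.29, adjusted p = 0.0147) and in B6J, with 14 counts over B6J iMEK against 2 over B6J DMSO (adjusted p = 0.0321). Magea8, of the same family, had 61 counts over 129 iMEK against 2 over 129 DMSO and was called higher with the inhibitor in 129 (adjusted p = 0.00449), as was Mageb16 (0.48). Magea8 passed the filter through its 129 iMEK libraries alone, so a higher level there was built into its being tested. For Magea4, which passed through 129 libraries alone, a lower B6J level was built in likewise. Tex16 (-2.16, 19 counts over B6J iMEK against 81 over B6J DMSO) and Taf7l (-0.74), genes of the testis, fell with the inhibitor in B6J. In DMSO Usp26 (-4.26), Nxf3 (-3.96) and Tktl1 (-1.78) were lower in B6J than in 129, and in the inhibitor Nxf3 (-3.19) and Magea8 (4 counts over B6J iMEK, against 61 over 129 iMEK) were lower and Mageb16 (0.57) higher.

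Of 29 tested autosomal germline genes known as silenced by methylation, 4 were higher and 11 lower in B6J in DMSO, and 1 higher and 9 lower in the inhibitor. With the inhibitor 7 rose and 4 fell in 129, and 8 rose and 4 fell in B6J. Tuba3a, a testis tubulin, averaged 12.1 ± 0.216 CPM in B6J iMEK and 4.02 ± 1.06 CPM in B6J DMSO (1.59, adjusted p = 0.00145), and 80.1 ± 22.4 CPM in 129 iMEK and 18.8 ± 6.43 CPM in 129 DMSO (2.09, adjusted p = 0.000192). Tuba3b, its close relative, held 53 counts over B6J iMEK and 6 over B6J DMSO (2.97), and 463 over 129 iMEK and 71 over 129 DMSO (2.59), and was lower in B6J in the inhibitor (-3.31) and in DMSO (-3.69). Other large responses were those of Hormad2 (1.97), Sycp2 (-1.89) and Tdrd1 (-1.69) in B6J and of Spo11 (-2.80) and Tex101 (1.88) in 129, genes of meiosis or the germline. Sycp2 held only 16 counts over B6J iMEK against 56 over B6J DMSO, and Spo11 6 over 129 iMEK against 41 over 129 DMSO. Spo11 passed the filter through its DMSO libraries alone, so a lower level in the inhibitor was built into its being tested. Between backgrounds Rpl10l (-3.02 in the inhibitor, -2.42 in DMSO), a ribosomal protein retrogene of the testis, Slc25a31 (-1.53 in the inhibitor) and Smc1b (-2.15 in DMSO), a meiotic cohesin subunit, were lower in B6J.

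Enzymes of DNA methylation were measured in the same libraries. Dnmt3b, a de novo methyltransferase, fell with the inhibitor in both backgrounds, to 332 ± 34.8 CPM in B6J iMEK, against 846 ± 3.62 CPM in B6J DMSO, and to 278 ± 24.8 CPM in 129 iMEK, against 723 ± 78.3 CPM in 129 DMSO (adjusted p = 3.44e-06 and 2.34e-06). Dnmt3a, the other de novo enzyme, averaged 132 ± 3.93 CPM in B6J iMEK and 316 ± 42.2 CPM in B6J DMSO (log2 fold change -1.26, adjusted p = 0.000142), and 122 ± 21.9 CPM in 129 iMEK and 164 ± 32.3 CPM in 129 DMSO (-0.42, adjusted p = 0.0588). The difference of these responses was -0.84 (adjusted p = 0.108). Dnmt1, which maintains methylation through replication, was not called in any contrast, and its partner Uhrf1 rose with the inhibitor in B6J (0.61) and in 129 (0.55). Of 24 tested regulators 7 rose and 8 fell in B6J, and 9 rose and 5 fell in 129. Prdm14, a repressor of the de novo enzymes in ES cells, rose in B6J (1.84) and in 129 (1.85), as did Zfp57 (1.02 and 0.99), which binds imprinted regions, while Smchd1 (-1.06) was among those that fell in 129. Dnmt3l, the cofactor of the de novo enzymes, was not called in B6J (0.17, adjusted p = 0.492) and rose in 129 (0.88, adjusted p = 0.0022). In DMSO 6 were higher and 0 lower in B6J than in 129, led by Dppa3 (2.43, adjusted p = 5.39e-07), Dnmt3a (0.95, adjusted p = 0.0016), Dnmt3l (0.90, adjusted p = 0.00307) and Setdb1 (0.38, adjusted p = 0.00188). In the inhibitor 2 were higher in B6J, Dppa3 (1.33, adjusted p = 4.69e-05) and Uhrf1 (0.25, adjusted p = 0.044), and 1 lower, Setdb1 (-0.42, adjusted p = 0.0011), while Dnmt3a (0.11) and Dnmt3l (0.20) were not called. Setdb1, a histone H3K9 methyltransferase, and Dppa3, which restrains UHRF1, were the regulators whose responses differed (B6J minus 129), by -0.80 and -1.10 (adjusted p = 0.00264 and 0.0187). Their part in the Xlr values was not tested.

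Markers of other cell types moved with the inhibitor. The summed level of 20 fibroblast (feeder cell) markers was 9598 to 14600 CPM in B6J iMEK libraries, against 6886 to 7569 CPM in B6J DMSO libraries, and 9419 to 13200 CPM in 129 iMEK libraries, against 4790 to 8752 CPM in 129 DMSO libraries. Of the 20, 12 rose and 0 fell in B6J, and 14 rose and 1 fell in 129. Of these markers 0 differed between backgrounds in either medium, and 0 were without counts in any group. With these markers as a covariate the B6J response was 4.33 for Xlr3a (adjusted p = 9.16e-05) and 2.07 for Xlr3b (adjusted p = 0.00681). Lymphocyte markers, relevant to a family named for these cells, summed to 6.41 to 7.92 CPM in B6J iMEK libraries, against 1.71 to 2.71 CPM in B6J DMSO libraries, and to 3.71 to 5.36 CPM in 129 iMEK libraries, against 1.73 to 2.90 CPM in 129 DMSO libraries. Cd3g and Cd3e, of the T-cell receptor complex, rose in both backgrounds and Cd4 in B6J. These were 3 of 6 tested in B6J and 2 of 6 in 129. Not called were Ptprc (-0.10 in B6J, 0.91 in 129), Cd79a (0.48 and -0.27) and Cd8a (1.49 and -1.54). Cd3g held 4 counts over B6J DMSO and 4 over 129 DMSO, so it passed the filter through its inhibitor libraries alone. Rag1 was at 0 counts in all groups but 129 DMSO. Germ cell markers summed to 163 to 229 CPM in B6J iMEK libraries, against 106 to 121 CPM in B6J DMSO libraries, and to 213 to 280 CPM in 129 iMEK libraries, against 177 to 185 CPM in 129 DMSO libraries. Of 7 tested, 2 rose and 2 fell in B6J and 1 rose and 3 fell in 129. Kit, a receptor of germ and blood cell precursors, rose in both and had the highest mean of the list in every group. It averaged 144 CPM in B6J iMEK, 50.3 CPM in B6J DMSO, 210 CPM in 129 iMEK and 130 CPM in 129 DMSO. Ddx4 (-0.69 in B6J, -0.57 in 129) and Nanos3 (-1.165 and -0.72) fell in both backgrounds. Dnd1 fell in 129 (-0.51) and Dazl rose in B6J (1.435). Nanos2 was at 0 counts in B6J DMSO and 129 iMEK. The part of lymphocytes and germ cells in the Xlr values was not tested.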

How the data were processed

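The authors deposited whole-number read counts per gene and library, without normalization, as 1 table with Ensembl identifiers. Per the submitters' processing notes, which state neither roles nor an order, the tools included HTSeq 0.6.1p1, STAR 2.7.10, DESeq and SAMtools, and GRCm38 and mm10 are named as builds. For the annotation, strand setting and handling of multiply mapped reads, details were not given in the sources used here. All 12 columns were mapped by name to a library, and 0 were not mapped.

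Genes were kept by filterByExpr (min.count 10, min.total.count 15), which left 16627, and scaled by TMM. All 12 libraries entered 1 edgeR 4.0.16 quasi-likelihood fit (R 4.3.3) with 4 group means. The 5 contrasts were each background's response to the inhibitor, the difference of these responses (interaction), and B6J minus 129 in each medium, with Benjamini-Hochberg adjustment over all tested genes and calls under 0.05. Unless another tool is named, every adjusted p is from this fit. DESeq2 1.42.0 and limma 3.58.1 (voom) were alternatives. Only the edgeR fit was tested on simulated data, for each background's response and for the background difference in DMSO. Ratios with intervals are pooled counts over pooled scaled totals. CPM values are counts scaled to a common TMM-adjusted library total.

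Replicate numbers are shared between groups. Deviations of same-numbered libraries from their group means were correlated by 0.442, 0.295 and 0.222 between the 129 groups, and by -0.188, 0.0883 and -0.170 between the B6J groups. Libraries with different numbers were not compared, and replicate 1 stood apart in both 129 groups, so these values cannot show a pairing by number. The labels give no source for a pairing.

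Transcript windows and exon lengths came from GENCODE M21, promoters from RefSeq (7 of 7 members matched by symbol). Of lists, the called genes with the largest changes were named, up to 4 per list and contrast, with the DNA methyltransferases and Uhrf1 in any contrast, neighbours by the same rule, and 2 genes per member by correlation. The members and lists were chosen with earlier results of these data known.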

Additional observations from a re-analysis of the deposited data

Results flagged for a closer look

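The response of Xlr3a to the inhibitor differed between the backgrounds by 4.21 on the log2 scale (B6J minus 129, SE 0.54, adjusted p = 0.0042 in edgeR's quasi-likelihood test of the difference itself). It was picked out because the fold change in B6J, with 155 counts over B6J iMEK against 8 over B6J DMSO, had no counterpart in 129. There 2402 counts in 129 iMEK stood against 2425 in 129 DMSO. The B6J means were 0.606 CPM in iMEK and 0.0344 CPM in DMSO, and the 129 SDs were 2.58 CPM in iMEK and 0.960 CPM in DMSO. A rise of the B6J size in CPM could therefore not be seen in 129. All 3 B6J iMEK libraries were above all 3 B6J DMSO libraries, and the adjusted p of the difference ran from 1.02e-08 to 0.0526 over the alternatives.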

How the results depend on the processing

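Over 35 single-gene results and 791 alternative values, 748 kept direction and side of the threshold, 4 lost a call, 15 gained one and 24 turned direction. The alternatives covered scaling, filters, tools, halved counts, a replicate block, a fibroblast covariate, fits of only the 2 groups compared and leaving out each library. The alternative without both 129 libraries numbered 1 was chosen after seeing the data. Where a fit left no count in either group it gave no value.

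Members called in the 129 response (0) became 1 with DESeq2, 2 with limma-voom, 3 with the covariate, 1 with only those groups, and 0 to 1 with 1 library left out (Xlr4a without replicate 1, Xlr3c without replicate 3, of B6J DMSO). Members called in the interaction (1) became 2 with DESeq2, 0 with limma-voom, 2 with halved counts, 2 with the covariate, and 1 to 2 with 1 library left out (Xlr3b was added without replicate 2 of B6J DMSO or replicate 1 of 129 DMSO). The B6J response held 2 to 3 calls and the background differences 6 to 7 (Xlr4c was lost in DMSO with only those groups, adjusted p = 0.06).

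The values that turned direction belong to results that were not called. In the 129 response these were Xlr3a (covariate 0.17, without both libraries numbered 1 0.0715, left-out range -0.23 to 0.0760), Xlr3b (without both 0.0439), Xlr4b (limma-voom 0.44, without both 1.35, left-out range -0.73 to 1.33) and Xlr4c (limma-voom 0.15, without both 0.89, left-out range -0.90 to 1.03). In the B6J response they were Xlr3c (left-out range -0.12 to 1.13), Xlr4a (-0.13 to 4.65) and Xlr4b (limma-voom -0.35, covariate -1.16, left-out range -3.48 to 1.15). In the interaction they were Xlr3c (left-out range -0.90 to 0.35), Xlr4a (limma-voom 0.36, left-out range -1.13 to 3.65) and Xlr4b (limma-voom -0.79, without both -0.73, left-out range -3.24 to 1.38). Values of Xlr4a without replicate 1 of B6J DMSO (4.65, 3.65) and of Xlr4b without replicate 3 of B6J iMEK (-3.48, -3.24) are fitted against 0 counts and are no bounds. The cause was not tested. With the replicate block, Xlr4b was 0.24 and Xlr4c 0.0176 in the 129 response, and the block changed no call of a member. Counts of 0 to 7 in the B6J libraries limit what can be said of the Xlr4 genes and Xlr5a there.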
